A study of Mus musculus with 17 samples.

Results

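Transcripts of 8 genes that couple heart muscle cells to each other, electrically and mechanically, were measured in whole hearts of mice with cardiac mtDNA mutagenesis. They are Scn4b (a sodium channel beta subunit), Gja1 and Gja5 (the gap junction proteins connexin 43 and connexin 40), Pkp2, Dsp, Dsg2 and Jup (plakophilin 2, desmoplakin, desmoglein 2 and plakoglobin of the desmosome) and Cdh2 (N-cadherin of the adherens junction). They were taken by gene name from a table of 56748 genes, all 8 were found, and all 8 passed the filter on low counts that left 16195 genes for testing. The filter did not depend on any 1 group, since the lowest count of any member in any heart was 269. On GRCm39 the table places Scn4b at chr9:45049693-45065450, Gja1 at chr10:56253426-56278609, Gja5 at chr3:96812009-96984732, Pkp2 at chr16:16031182-16090576, Dsp at chr13:38335270-38382553 and Dsg2 at chr18:20691131-20737578, all on the plus strand, and Jup at chr11:100259784-100288589 and Cdh2 at chr18:16721934-16942303 on the minus strand.

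At the intercalated disc, the end-to-end contact between cardiomyocytes, desmosomes anchor the desmin filaments and adherens junctions anchor the actin filaments, so that force passes from cell to cell. Gap junction channels made of connexins pass the depolarizing current, and voltage-gated sodium channels, made of a pore-forming alpha subunit and auxiliary beta subunits, gather at the same contacts and set the speed of the upstroke. Human variants in several desmosomal genes cause arrhythmogenic cardiomyopathy, and connexin 40 is known from atria, the ventricular conduction system and arterial endothelium rather than from ventricular working muscle.

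Hearts came from 9 hMut and 8 Ctrl mice aged 12 to 16 months. The hMut mice were homozygous for the inducible allele Polg iMut, in which Cre removes a wild-type Polg cassette and so switches on a proofreading-deficient mtDNA polymerase, and they carried Ckmm-cre, whose muscle creatine kinase promoter drives Cre in heart and skeletal muscle. Other cell types of the heart therefore keep the wild-type cassette, while the RNA was from whole tissue. The labels name the other mice only as Ctrl. No sex is given, and by Xist and Y-linked counts there were 3 females and 5 males in Ctrl and 2 females and 7 males in hMut.

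Total counts per library lay between 34425783 and 46486964 in Ctrl and between 32915159 and 40175122 in hMut. The targeted gene, Polg, averaged 34.7 ± 7.30 CPM in Ctrl (SD, n = 8; CPM are counts per 1000000 counts of the TMM-scaled library) and 57.9 ± 6.07 CPM in hMut (SD, n = 9), and 8 of 9 hMut hearts lay above every Ctrl heart. Genes encoded by mtDNA took a share of 23.5 to 30.9% of the counts in Ctrl and 15.9 to 23.0% in hMut. Cardiomyocyte markers were plentiful in every heart, but the atrial myosin light chain Myl7 reached at most 19 counts, and the atrial genes Sln and Mybphl at most 11 and 12 counts. The other atrial markers were not all so low: Myl4 reached 94 counts, Dkk3 reached 9.47 CPM in Ctrl and 25.0 CPM in hMut, and Bmp10 reached 0.371 CPM in Ctrl and 25.1 CPM in hMut. hMut 6 and hMut 9 stood apart from the other hMut hearts: their summed level of 10 cardiomyocyte markers was 41120 and 39570 CPM, against 51840 to 62370 CPM in Ctrl and 52190 CPM or more in the other hMut hearts.

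None of the 8 genes passed the adjusted threshold between hMut and Ctrl (edgeR's quasi-likelihood test, Benjamini-Hochberg over all tested genes, 0.05). Of all tested genes, 4.62% passed it, 3.48% higher and 1.14% lower in hMut. At an unadjusted p under 0.05 there were 5 of the 8, beside 25.8% of all tested genes. Scn4b, Dsg2, Cdh2 and Dsp were lower in hMut, a direction taken at this level by 11.3% of all tested genes, and Pkp2 was higher, as were 14.5%. The median log2 fold change of the 8 genes was -0.13, and that of all tested genes was 0.00225. DESeq2 called 2 of the 8 (Scn4b and Dsg2), where it called 9.33% of all genes, and limma-voom with sample quality weights called 2 (Dsg2 and Cdh2), where it called 12.8%. No gene among the 8 had groups that did not overlap, which 0.605% of all tested genes had.

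**Figure D1:**
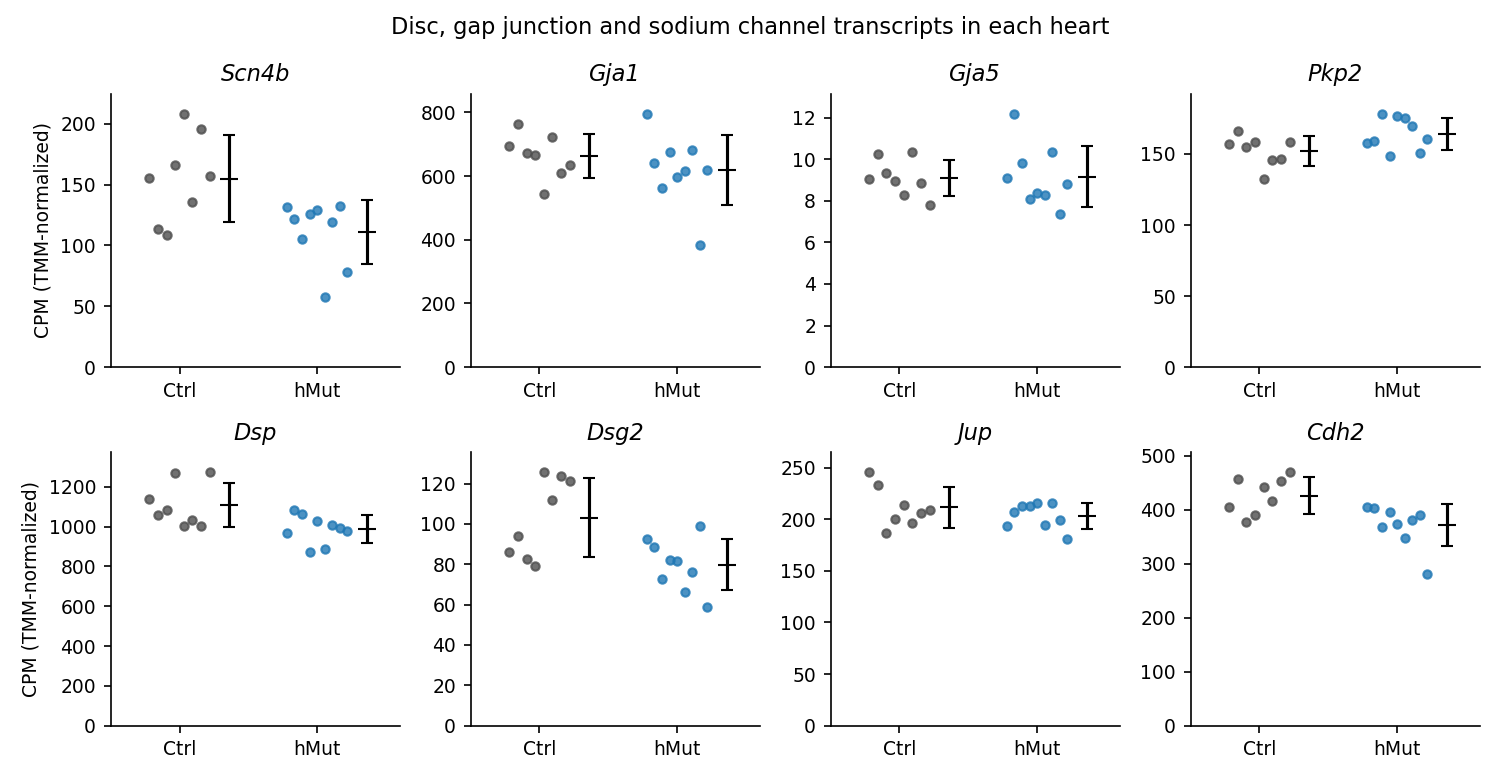
Level of each of the 8 genes in every heart, in TMM-normalized CPM on axes that start at 0, for 8 Ctrl hearts (grey) and 9 hMut hearts (blue). Bars give the group mean and SD. All 9 hMut hearts lay below the Ctrl median for Scn4b, Dsg2 and Cdh2, while 7 of 9 lay above it for Pkp2.

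Scaled to length, Dsp was the most abundant of the 8 in Ctrl hearts, at 115 ± 11.4 CPM per kb (SD, n = 8), followed by Gja1 at 64.7 ± 6.60, Cdh2 at 52.9 ± 4.21, Jup at 32.8 ± 3.02, Scn4b at 31.1 ± 7.16, Pkp2 at 28.4 ± 1.97 and Dsg2 at 12.5 ± 2.37 CPM per kb. Gja5 came last, at 1.59 ± 0.152 CPM per kb. Taken over all 17 hearts of both groups, its mean per length was above that of 38.6% of the tested genes, against 97.9% for Dsp. Of the neighbours in this order, Gja1 and Cdh2 overlapped in both groups, as did Scn4b and Pkp2. Jup and Scn4b overlapped in Ctrl only, since in hMut the highest Scn4b value was 26.5 CPM per kb and the lowest Jup value was 28.01 CPM per kb. Scn4b exceeded Pkp2 per length in 6 of 17 hearts. The other neighbours did not overlap in either group.

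Scn4b encodes the beta 4 subunit, which is bound to the cardiac sodium channel and shapes its gating. It was measured in Ctrl hearts from 108 to 208 CPM with a median of 156, and in hMut hearts from 57.9 to 132 CPM with a median of 122. All 9 hMut hearts lay below the Ctrl median and 3 lay below every Ctrl heart, but the groups overlapped, as Ctrl 2 and Ctrl 3 were at 113 and 108 CPM. The lowest hearts were hMut 6 at 57.9 CPM and hMut 9 at 77.9 CPM. The log2 fold change was -0.48 (SE 0.16, 95% interval -0.82 to -0.14), a level 28.3% lower, with an adjusted p of 0.0851 in edgeR's quasi-likelihood test. Without hMut 6 and hMut 9 it was -0.33 (adjusted p = 0.139, edgeR).

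Of 6 tested genes for alpha subunits of sodium channels and 4 tested genes for beta subunits, none passed the adjusted test. At the unadjusted level no alpha gene and 2 beta genes passed, 1 in each direction, beside 25.8% of all tested genes. Scn4b was the lower one, a direction taken at this level by 11.3% of all tested genes.

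Gja1, the connexin of ventricular gap junctions, ranged from 545 to 763 CPM in Ctrl with a median of 669.7, and from 383 to 796 CPM in hMut with a median of 619.5. The groups overlapped throughout, and the hMut hearts included both the lowest value (hMut 8) and the highest value (hMut 1) of all. The log2 fold change was -0.10 (SE 0.10, 95% interval -0.32 to 0.12) and did not pass the test (adjusted p = 0.554, edgeR's quasi-likelihood test). Gja5 was measured on 269 to 443 counts per heart. It ranged from 7.79 to 10.4 CPM in Ctrl and from 7.37 to 12.2 CPM in hMut, with medians of 9.02 and 8.83. Its log2 fold change was 0.01 (95% interval -0.18 to 0.20), which in percent of the Ctrl level ran from -11.7% to 14.6%.

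Pairs of genes were also compared within each heart as a log2 ratio of length-scaled counts, which does not depend on the scaling between libraries, with all 24310 splits of the hearts enumerated in an exact two-sided permutation test. The log2 ratio of Gja5 to Gja1 differed by 0.11 between hMut and Ctrl (exact permutation p = 0.276). Its SD was 0.10 in Ctrl and 0.27 in hMut, and 2 hMut hearts lay below and 3 above every Ctrl heart. Gjc1 (connexin 45, of the nodes and conduction system) had a log2 fold change of -0.10 (adjusted p = 0.451), and Gja4 (connexin 37, of arterial endothelium) one of 0.21 (adjusted p = 0.105), both in edgeR's quasi-likelihood test. Gja4 averaged 8.11 ± 0.848 CPM in Ctrl and 9.39 ± 1.01 CPM in hMut, and all 9 hMut hearts lay above the Ctrl median. The summed level of 10 arterial endothelial markers, of which Gja4 is 1, was 165 to 192 CPM in Ctrl and 183 to 226 CPM in hMut. That of 10 conduction system markers was 93.1 to 124 CPM in Ctrl and 59.0 to 118 CPM in hMut, and of the 7 tested none passed the adjusted test. Their part in the values of Gja5 and Gja4 was not tested.

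Of 9 tested connexins and pannexins, 1 passed the adjusted test, beside 4.62% of all tested genes. Panx1, which forms large-pore channels in the cell membrane that release ATP, rose from 1.76 ± 0.304 CPM in Ctrl (SD, n = 8) to 3.91 ± 2.58 CPM in hMut (SD, n = 9), a log2 fold change of 1.16 (SE 0.31, adjusted p = 0.0396, edgeR's quasi-likelihood test). Ctrl hearts ranged from 1.34 to 2.19 CPM and hMut hearts from 1.43 to 9.25 CPM with a median of 3.18. In hMut 7 of 9 hearts lay above every Ctrl heart, and the highest were hMut 6 and hMut 9, at 9.25 and 6.96 CPM. Myeloid cells also express Panx1, and the summed level of 10 myeloid markers reached 1341 CPM in hMut 6 against 383 CPM at most in Ctrl. Its group medians were close, at 347 CPM in Ctrl and 359 CPM in hMut. The part of myeloid cells in the result was not tested.

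Dsg2, the main desmoglein of heart muscle, ranged from 79.2 to 126 CPM in Ctrl with a median of 103, and from 58.7 to 99.0 CPM in hMut with a median of 81.4. All 9 hMut hearts lay below the Ctrl median, and 4 lay below every Ctrl heart. The Ctrl hearts themselves spread widely: Ctrl 1 to Ctrl 4 lay between 79.2 and 94.1 CPM, inside the hMut range, and Ctrl 5 to Ctrl 8 lay between 112 and 126 CPM, above every hMut heart. The log2 fold change was -0.37 (SE 0.11, 95% interval -0.61 to -0.13), a level 22.7% lower, with an adjusted p of 0.0677 in edgeR's quasi-likelihood test. The gene passed the threshold when any of Ctrl 4, hMut 1, hMut 2 or hMut 8 was left out (adjusted p = 0.0436, 0.0487, 0.0436 and 0.0429). Its partner cadherin Dsc2 (desmocollin 2) averaged 49.2 ± 6.10 CPM in Ctrl and 42.7 ± 6.73 CPM in hMut, with a log2 fold change of -0.20 (adjusted p = 0.180).

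Dsp, which links the desmosomal plaque to desmin, ranged from 1002 to 1273 CPM in Ctrl with a median of 1071, and from 874 to 1085 CPM in hMut with a median of 993. In hMut 8 of 9 hearts lay below the Ctrl median and 5 lay below every Ctrl heart. The log2 fold change was -0.17 (SE 0.06, 95% interval -0.30 to -0.04, adjusted p = 0.114, edgeR's quasi-likelihood test). Jup, which binds both desmosomal cadherins and N-cadherin, ranged from 187 to 245 CPM in Ctrl and from 180 to 216 CPM in hMut, with medians of 207.3 and 206.5. Its log2 fold change was -0.06 (95% interval -0.17 to 0.06, adjusted p = 0.519), and its hMut hearts spread less than those of any other gene of the 8, with a CV of 6.07%.

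Pkp2, the plaque protein that ties desmosomal cadherins to Dsp, went the other way. It ranged from 132 to 166 CPM in Ctrl with a median of 156, and from 149 to 178 CPM in hMut with a median of 160.5. In hMut 7 of 9 hearts lay above the Ctrl median and 4 lay above every Ctrl heart (hMut 3, 5, 6 and 7). The log2 fold change was 0.11 (SE 0.05, 95% interval 0.00 to 0.21), with an adjusted p of 0.183 in edgeR's quasi-likelihood test.

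The proportion between the 2 plaque genes passed a test adjusted over 4 ratios, while neither level passed one adjusted over all tested genes. The 2 thresholds are not alike, as both levels had an unadjusted p under 0.05 (0.0442 for Pkp2 and 0.0154 for Dsp, edgeR's quasi-likelihood test). How often other gene pairs would pass the ratio test was not tested. For every 100 length-scaled counts of Dsp there were 24.8 of Pkp2 in Ctrl and 30.0 in hMut. The mean log2 ratio was -2.01 ± 0.11 in Ctrl (SD, n = 8) and -1.74 ± 0.12 in hMut (SD, n = 9), a difference of 0.27 (exact permutation p = 0.000370, 0.00148 adjusted over the 4 ratios). All 9 hMut hearts lay above the Ctrl median and 7 lay above every Ctrl heart. Without hMut 6 and hMut 9 the difference was 0.24 (exact permutation, adjusted p = 0.00622). The ratio of Dsg2 to Cdh2, 1 cadherin from each kind of junction, differed by -0.16 (exact permutation p = 0.0619, adjusted p = 0.0825). With 1 heart left out it passed the threshold in 3 of 17 settings, those without Ctrl 2, Ctrl 4 or hMut 8 (adjusted p = 0.0465, 0.0414 and 0.0431). Its log2 values in Ctrl 1 to Ctrl 4 were -2.335 to -2.228, inside the hMut range of -2.425 to -2.014. Those in Ctrl 5 to Ctrl 8 were -1.991 to -1.851, above every hMut heart.

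**Figure D2:**
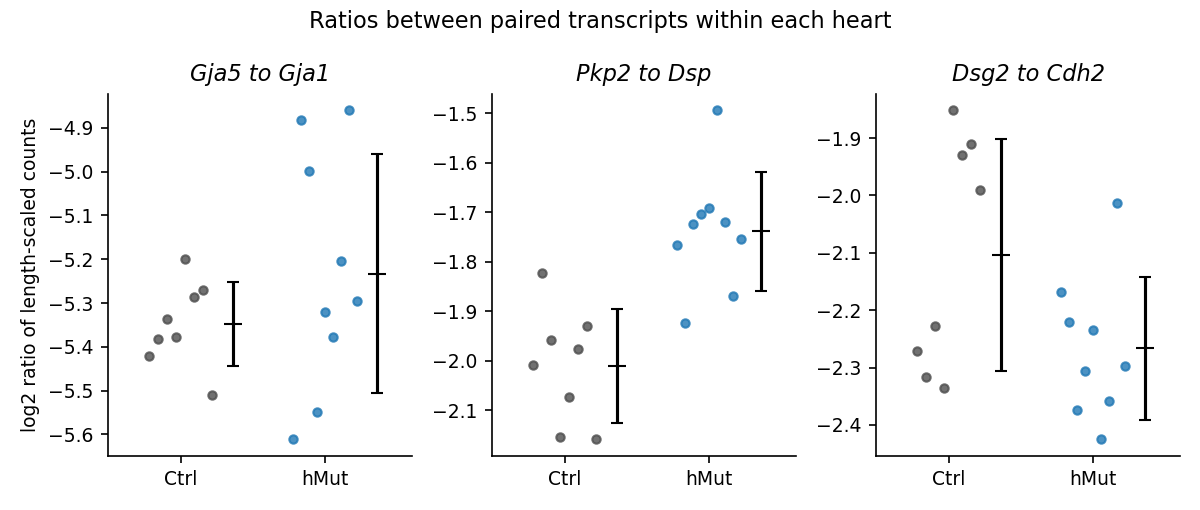
Log2 ratio of length-scaled counts of paired genes within each heart, for 8 Ctrl hearts (grey) and 9 hMut hearts (blue), with the group mean and SD as bars. Axes do not start at 0 because the values are log ratios; 7 of 9 hMut hearts lay above all Ctrl hearts for Pkp2 to Dsp, and 3 of 9 lay below all Ctrl hearts for Dsg2 to Cdh2.

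Cdh2, the classical cadherin of the adherens junction of heart muscle, ranged from 378 to 469.8 CPM in Ctrl with a median of 429, and from 281 to 405 CPM in hMut with a median of 381. All 9 hMut hearts lay below the Ctrl median and 4 lay below every Ctrl heart, with hMut 9 the lowest. The log2 fold change was -0.20 (SE 0.07, 95% interval -0.34 to -0.06), a level 12.8% lower, with an adjusted p of 0.0882 in edgeR's quasi-likelihood test. Catenins join N-cadherin to actin. Ctnna3 (alpha-T-catenin) came near Cdh2 in size, with a log2 fold change of -0.17 (95% interval -0.38 to 0.04, adjusted p = 0.279). For Ctnna3 4 of 9 hMut hearts lay below every Ctrl heart. Ctnnb1 (beta-catenin) had a log2 fold change of 0.03 (95% interval -0.04 to 0.11). Tjp1 (ZO-1, which binds connexin 43 at the edge of gap junctions) had one of -0.09 (95% interval -0.19 to 0.00, adjusted p = 0.211), and 5 of 9 hMut hearts lay below every Ctrl heart.

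The wider inventory of these structures was described by 99 further genes, of which 70 were tested and 3 passed, all higher in hMut, or 4.29% against 4.62% of all tested genes. Panx1 was among them, and so was Xirp2. Xirp2, an actin-binding Xin repeat protein of the disc, rose from 510.0 ± 101 CPM in Ctrl (SD, n = 8) to 807 ± 242 CPM in hMut (SD, n = 9), a log2 fold change of 0.66 (SE 0.16), with 0.0286 as the adjusted p in edgeR's quasi-likelihood test. Its highest hearts were again hMut 9 and hMut 6, at 1219 and 1143 CPM, and 5 of 9 hMut hearts lay above every Ctrl heart. Without hMut 6 and hMut 9, with fewer hearts in the fit, none of the 70 passed, and the log2 fold changes were 0.46 for Xirp2 (adjusted p = 0.0604) and 0.63 for Panx1 (adjusted p = 0.0872).

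By structure, with the 8 genes counted in their own lists, none of 9 desmosomal genes passed the adjusted test, nor did any of 13 adherens junction genes or any of 11 regulators of conduction. At the unadjusted level there were 5, 1 and 2, beside 25.8% of all tested genes. Of 15 disc scaffold genes 1 passed, Xirp2, and 6 passed at the unadjusted level. The median log2 fold changes of these lists ran from -0.17 for the conduction regulators to -0.01 for the desmosomal and adherens junction genes.

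**Figure D3:**
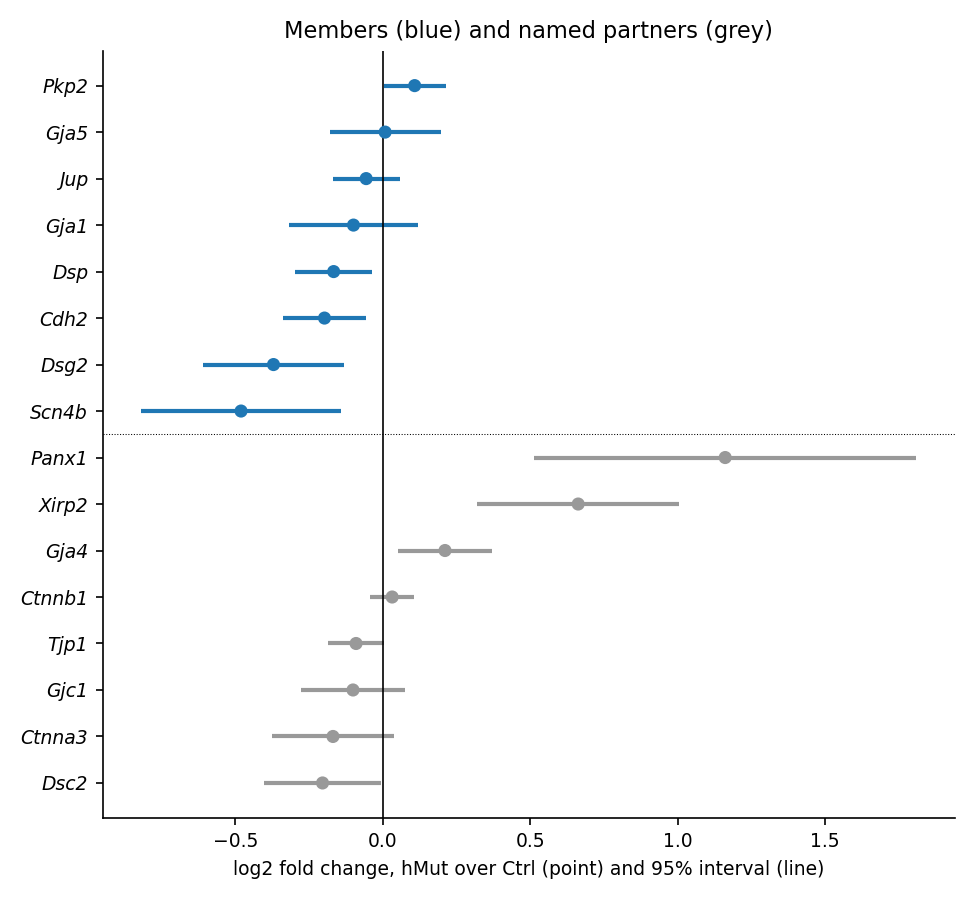
Log2 fold change of hMut over Ctrl (points) with 95% intervals (lines) from edgeR's quasi-likelihood fit, for the 8 genes (blue) and 8 named partners (grey). The intervals of Scn4b, Dsg2, Cdh2 and Dsp lay below 0 and that of Pkp2 just above it, and Panx1 and Xirp2 had the highest values.

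All 10 cardiomyocyte markers had negative log2 fold changes, with a median of -0.24. At the unadjusted level, where 11.3% of all tested genes were lower, 6 of the markers were lower, and none passed the adjusted test. Their summed level was 51840 to 62370 CPM in Ctrl and 39570 to 61800 CPM in hMut. Fewer cells of a type and less RNA per cell cannot be told apart in bulk tissue. When libraries were scaled on the cardiomyocyte markers instead, the median of all tested genes moved to 0.227 on the log2 scale and 27.0% of all tested genes passed the adjusted test. On that scale Dsp, Cdh2, Gja1 and Jup turned to positive values (0.05, 0.01, 0.13 and 0.16), Scn4b and Dsg2 stayed negative (-0.29 and -0.17), and Pkp2 passed (log2 fold change 0.34, adjusted p = 0.0254). Relative to the median gene, the values on that scale were -0.52 for Scn4b, -0.39 for Dsg2, -0.21 for Cdh2, -0.17 for Dsp and 0.11 for Pkp2. Those of Gja1, Jup and Gja5 were -0.10, -0.06 and -0.0063. Taking off the median undoes the shift of scale, so these values lie near the TMM ones and are not a separate result.

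Fibroblast and myeloid markers were highest in hMut 6 and hMut 9, where the fibroblast markers summed to 2246 and 1768 CPM and the myeloid markers to 1341 and 686 CPM. This was not so for every cell type, as the summed endothelial markers were highest in hMut 7 and the mural markers were lowest in hMut 6, at 1043 CPM. The summed level of 10 fibroblast markers was 1016 to 1185 CPM in Ctrl and 1005 to 2246 CPM in hMut. At the unadjusted level 8 of them were higher, beside 14.5% of all tested genes, and none passed the adjusted test. All 10 myeloid markers had positive log2 fold changes, 6 of them past the unadjusted level, beside the same 14.5%, and none past the adjusted one. Other lists did hold adjusted calls, all higher in hMut, beside 3.48% of all tested genes. They were 2 of 10 endothelial (Cldn5 and Kdr), 1 of 10 arterial endothelial (Unc5b) and 1 of 10 mural markers (Pdgfrb). Mesothelial and epithelial markers gave 1 of 4 tested (Wt1) and skeletal muscle markers 1 of 4 (Acta1). Lymphoid, Schwann cell and adipocyte markers gave none. Of 10 atrial markers 7 were tested and Bmp10 alone passed, with a log2 fold change of 5.58. The 7 did not move together. At the unadjusted level 3 were higher and 2 were lower, beside 14.5% and 11.3% of all tested genes. Tbx5, for 1, ranged from 21.7 to 32.8 CPM in Ctrl and from 12.4 to 29.1 CPM in hMut. The summed level of the 10 was 112 to 242 CPM in Ctrl and 147 to 764 CPM in hMut. Nppa, which stressed ventricle also expresses, supplied up to 164 CPM of it in Ctrl and up to 684 CPM in hMut. An atrial score was the mean log2 CPM of the 7 tested markers, whose log2 fold changes ran from -0.28 to the 5.58 of Bmp10. It therefore leans on Bmp10 and is not a plain measure of atrial tissue. With this score as a covariate no gene among the 8 passed, and the value of Scn4b was -0.16. The score itself ran from -0.35 to 0.31 in Ctrl and from -0.12 to 1.28 in hMut. This fit therefore cannot fully separate the score from group. The targeted gene Polg also lost its call in it (log2 fold change 0.83, adjusted p = 0.0563, edgeR's quasi-likelihood test). The part of these cell types in the results was not tested beyond these fits.

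The hearts did not vary alike for all 8 genes. Over the 17 hearts, after the group means were taken out, Spearman's rho was 0.779 between Scn4b and Dsg2, 0.760 between Dsg2 and Cdh2 and 0.554 between Scn4b and Cdh2. The connexins Gja1 and Gja5 had a rho of 0.593. Pkp2 ran against Dsg2 and Scn4b, with rho of -0.578 and -0.544, and with Dsp at 0.461. Across all 28 pairs the median was 0.117 and 17 were positive, and the points share libraries and scaling. Differences between hearts within a group stay in these values. Among them are the split of the Ctrl hearts for Dsg2 and the low Scn4b and Dsg2 of hMut 6 and hMut 9. Their part in the correlations was not tested.

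**Figure D4:**
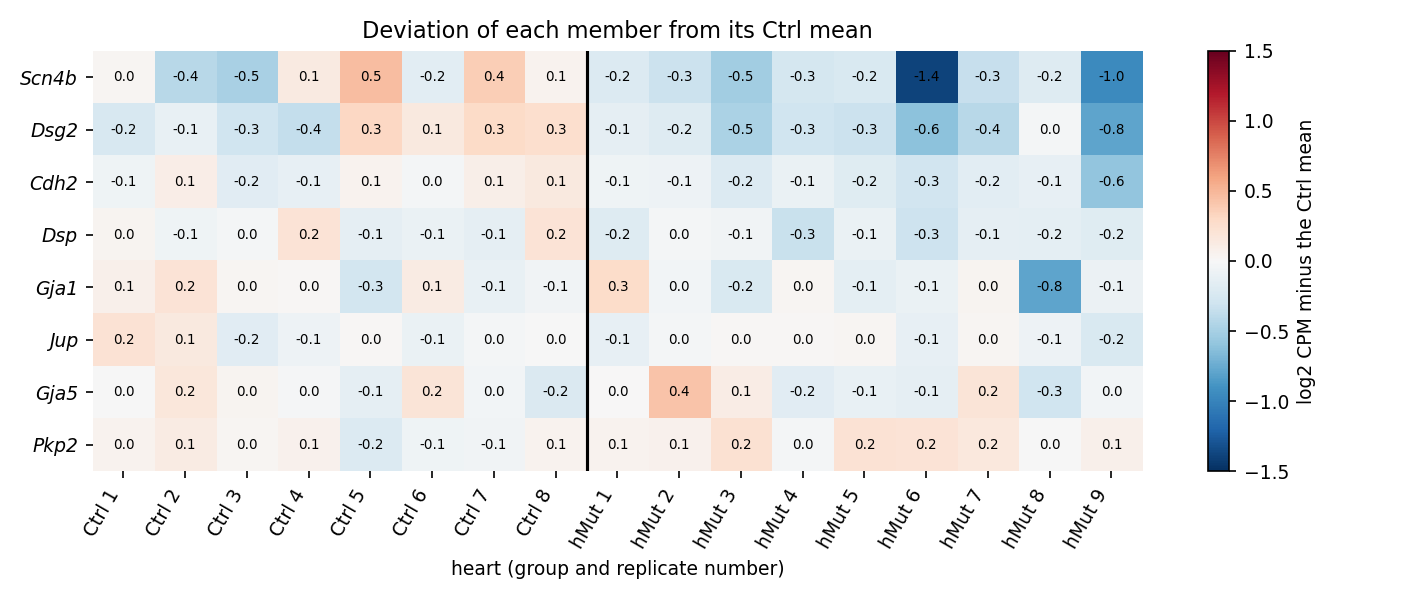
Log2 CPM of each gene in each heart minus its Ctrl mean, in log2 units, with 8 Ctrl hearts left of the line and 9 hMut hearts right of it. Scn4b and Dsg2 were low together in hMut 3, hMut 6 and hMut 9, Gja1 was low in hMut 8 alone, and Pkp2 was above its Ctrl median in 7 of 9 hMut hearts.

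By heart, hMut 9 lay below every Ctrl heart for 5 of the 8 genes and hMut 6 for 4, while hMut 2 did so for none. hMut 3 and hMut 8 each did so for 3, and hMut 8 lay below the Ctrl median for all 8 genes. How many of all tested genes lay outside the Ctrl range in each heart was not counted. These numbers therefore describe the hearts and are not a result about the 8 genes.

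Among 10459 genes with a mean of at least 5 CPM, those whose group-centred levels ran most like each gene over the 17 hearts were named by Spearman's rho. Scn4b was most like Trim7 (0.912), Zfp30 (0.892) and Plin5 (0.877), a lipid droplet protein. Dsg2 was most like Slc27a1 (0.936), a fatty acid transporter, Nckap5 (0.936) and Kcnh2 (0.934), the pore of the rapid delayed rectifier potassium channel. Cdh2 was most like Zfp606 (0.885), Lamb3 (0.868) and Tomm40l (0.863), and Dsp was most like Plin3 (0.931), Gm44608 (0.919) and Setd3 (0.917). Pkp2 was most like Rab11fip5 (0.855), Prkab2 (0.848), a beta subunit of AMP-activated kinase, and Clic5 (0.838). Jup was most like Ret (0.792), Chmp6 (0.789) and Nif3l1 (0.787). Gja1 was most like Vegfc (0.846), Cyp51 (0.831) and Slc41a3 (0.828), and Gja5 was most like Gtf2h5 (0.850), Exd2 (0.779) and Mycbp (0.750). These are the highest of many correlations and are given as a description.

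Each gene was also set against the mtDNA-encoded share of counts over the 9 hMut hearts, with levels taken as log2 CPM of the nuclear counts alone. Of 8 relations, that of Pkp2 passed by Pearson's r, at -0.81 (exact permutation p = 0.00534, adjusted p = 0.0427), while the rank correlation, Spearman's rho of -0.75, gave 0.0255 by exact permutation and 0.204 after adjustment. Pkp2 was at 240.3 CPM of nuclear counts in hMut 6, which had the lowest share of 15.9%, and at 197 in hMut 2, which had the highest share of 23.0%. Without hMut 5 and hMut 6, farthest from the median share, r was -0.66 over 7 hearts (exact permutation p = 0.110), which no longer passed with 2 fewer hearts. For the other 7 genes r lay between -0.34 and 0.58, and the lowest adjusted p was 0.444 (exact permutation).

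**Figure D5:**
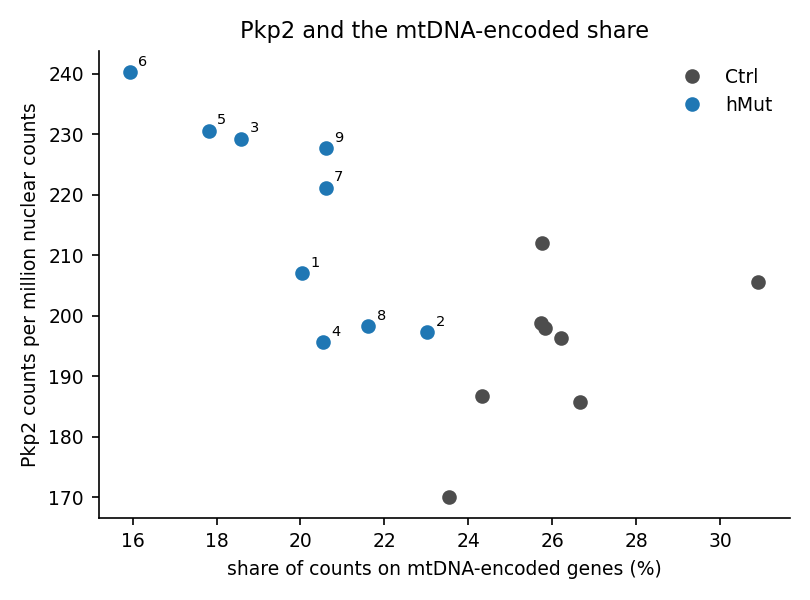
Pkp2 in CPM of nuclear counts (vertical axis) against the mtDNA-encoded share of counts in percent (horizontal axis), for 8 Ctrl hearts (grey) and 9 hMut hearts (blue, with replicate numbers). The axes do not start at 0; hMut 6 had the lowest share and the highest Pkp2 level, and r was computed over the hMut hearts only.

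The 200 bases just before the annotated start are shown for Scn4b, the gene with the lowest fold change of the 8. The start is that of the GENCODE transcript, and the count table begins the gene further downstream, at base 45049693. The bases were read from GRCm39 with the GENCODE vM39 transcript start, on the plus strand at chr9:45049395-45049594, and capitals mark the GC box GGGCGG, searched on both strands with overlapping matches kept.
Scn4b: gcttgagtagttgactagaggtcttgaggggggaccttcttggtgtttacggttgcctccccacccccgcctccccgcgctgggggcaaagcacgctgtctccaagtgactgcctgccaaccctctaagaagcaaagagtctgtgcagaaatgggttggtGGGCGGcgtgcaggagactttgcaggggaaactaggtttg

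Scn4b had 1 match to the GC box, and 34.8% of 21770 upstream regions of the same length held at least 1. The window did not hold the TATA box with the letters TATAAA, which 9.57% of the regions held on either strand, or the E-box with the letters CACGTG, which 5.43% held. Nor did it hold the GATA motif (AGATAA) found in 7.25% of the regions, the T-box motif (AGGTGT) found in 9.80%, or the NK2 motif of heart muscle (CACTTGA) found in 2.15%. The CCAAT box was in 32.3% of the regions and the MEF2 motif in 2.55%, and neither was in this window. A match is a description of letters, and the transcripts measured here carry no information on which factors bind.

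In the annotation, exons of 5 of the 8 genes overlapped exons of genes on the opposite strand: Scn4b with Gm39327 over 107 bases, Gja1 with Gm68148 over 143, Gja5 with Gpr89 over 165, Dsp with Gm10129 over 539 and Dsg2 with Gm16090 over 330. Whether reads were counted by strand is not stated, and these values can hold reads of both genes. The overlaps covered a small part of each gene, such as 107 of 5082 exonic bases of Scn4b.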

How the data were processed

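PolyA-selected RNA of 17 mouse hearts was sequenced. Per the labels and the study's methods, the authors used fastp for read filtering, HISAT2 2.2.1 for alignment to the mouse genome GRCm39 and featureCounts 2.0.6 for counting. They deposited unnormalized counts. Whether counting used strand is not given in the sources used here. Separate libraries are separate mice.

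From the counts, genes passing edgeR's filterByExpr (16195 of 56748) were scaled by TMM and tested with edgeR's quasi-likelihood test (edgeR 4.0.16, R 4.3.3), with group as the only term and Benjamini-Hochberg adjustment over all tested genes. SE is the absolute log2 fold change over the root of the F statistic. Alternatives used DESeq2 (version 1.42.0), limma-voom (limma 3.58.1) and other scalings, filters and covariates. Ratios took length-scaled counts with 0.5 added, tested by two-sided exact permutation. The fit was tested on simulated counts of 16195 genes for hMut against Ctrl: of 99 genes changed by a log2 fold of 1, 77 were called, of 99 changed by 0.5, 55 were called, and 4 of 15838 unchanged genes were called.

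The 8 genes and all gene lists were chosen with earlier results of these data known. Named genes are the 8, every listed partner that passed, 8 closest partners (some of these, 1 of the 4 ratios and some sequence are not reported here) and the 3 most alike genes per member. Same-numbered hearts of both groups did not deviate together: 1 of 8 pairs had a correlation over 0.1 (range -0.23 to 0.34). No protein sequences were used here.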

Additional observations from a re-analysis of the deposited data

Results flagged for a closer look

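Among the hMut hearts, the Gja1 level of hMut 8, at 8.58 log2 CPM, stood apart from the nearest other heart by 0.524 of the whole range, above the Dixon limit of 0.493 for 9 samples. The Cdh2 level of hMut 9, at 8.14 log2 CPM, stood apart by 0.580 of the range. These were 2 of 24 groups tested, and chance flags about 1 in 20 groups. Without hMut 8 the log2 fold change of Gja1 was -0.03 (edgeR's quasi-likelihood test, adjusted p = 0.805), and without hMut 9 that of Cdh2 was -0.15 (adjusted p = 0.108).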

How the results depend on the processing

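The direction of Scn4b, Dsg2 and Pkp2 held in all 29 alternatives tried for each. The difference in the ratio of Pkp2 to Dsp had its own, fewer alternatives: another pseudocount, medians in place of means, and hearts left out. It passed its threshold in each of these, but no covariate was tried in the ratio test. Genes called numbered 1517 with DESeq2, 2081 with limma-voom, 4371 with scaling on cardiomyocyte markers (4280 higher and 91 lower, against 564 and 185), 463 with no filter, 13 with the atrial score as a covariate and 431 without hMut 6 and hMut 9. In the same order, the calls among the 8 genes were 2, 2, 1, 0, 0 and 0, and those among the 70 partners were 7, 9, 20, 2, 0 and 0. With the replicate number as a block, 195 genes, 0 of the 8 and 0 partners were called. The numbers name different mice and pair none. Panx1 lost its call with sex as a covariate (edgeR's adjusted p = 0.0708).

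Scaling on cardiomyocyte markers reversed Gja1 (0.13), Dsp (0.0543), Jup (0.16), Cdh2 (0.0122), Gjc1 (0.13), Dsc2 (0.00206), Ctnna3 (0.0373) and Tjp1 (0.12). The atrial score, which itself ran higher in hMut, reversed Gja1 (0.0577), Jup (0.0428), Panx1 (-0.28), Ctnnb1 (-0.0181) and Ctnna3 (0.0230). Gja5 reversed with limma-voom (-0.00242) and upper-quartile normalization (-0.00848). Without hMut 6 and hMut 9, r with the mtDNA-encoded share was -0.82 for Pkp2 (exact permutation, adjusted p = 0.171) and -0.12 for Dsp. The ratios and these relations without both hearts were alternatives chosen after seeing the data. The causes were not tested.

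Leaving out 1 heart at a time gave 395 to 1792 called genes, beyond 1.5 times the count for Ctrl 1, 2 and 5 to 8 (428 to 486), hMut 5, 6, 7 and 9 (395 to 497), and hMut 1 and hMut 2 (1182 and 1792). It gave 0 to 1 calls among the 8 genes, 0 to 8 among the partners, and log2 fold changes of -0.0524 to 0.0428 for Gja5. The Dsg2 to Cdh2 difference ran from -0.20 to -0.13. The edgeR call of Xirp2 was lost without Ctrl 5, 6, 7 or 8 or hMut 5, 7 or 9 (adjusted p of 0.0504 to 0.0621) and that of Panx1 without Ctrl 1, 2, 4, 5, 6, 7 or 8 or hMut 3, 5, 6, 7 or 9 (0.0511 to 0.0796). Each of the 8 genes had at least 269 counts in every heart, and the effect of depth on the calls was not tested.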
